A study of Mus musculus with 10 samples.

Results

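The pore-forming and auxiliary subunits of the L-type and T-type voltage-gated calcium channels were examined as 10 genes in the mouse right atrium. They were taken by symbol from the 23337 genes of the deposited count table and comprised Cacna1c, Cacna1d, Cacna1s, Cacna1g, Cacna1h, Cacnb1, Cacnb2, Cacnb3, Cacna2d1 and Cacna2d2. All 10 were listed, and all 10 were among the 13084 genes with enough reads to be tested. RNA was sequenced from right atria as 1 library per mouse, 4 of the mice being labelled control and 6 being labelled Tbx5 mutant, to ask which transcripts differ after loss of TBX5, a T-box transcription factor of the atrium. The protocol given for all mice describes a tamoxifen-inducible Cre recombinase under the ubiquitous R26 promoter that excises exon 3 of Tbx5. Tamoxifen was injected into the peritoneum on 3 days at a daily dose of 0.167 mg, and atria were collected after 1 week. The mutant genotype is labelled R26Cre driven TBX5 removal and the other genotype only Control, so the alleles of the control mice are not given by the labels. The strain label is mix, and the age is given as 8 to 10 weeks in one label and as 6 to 8 weeks in another. The promoter is ubiquitous and not limited to cardiomyocytes, and excision by cell type was not measured. The labels name both a poly(A) mRNA kit and a ribosomal RNA-depleted total RNA library, and which of them made these libraries was not resolved.

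The targeted gene had more reads under the Tbx5 mutant label than under the control label. CPM values, the reads of a gene relative to the TMM-scaled total of its library, were 205 ± 17.8 (SD, n = 4) for Tbx5 under the control label and 394 ± 83.3 (SD, n = 6) under the Tbx5 mutant label, a log2 difference of 0.94 (SE 0.15, edgeR adjusted p = 0.000495). Gene counts cannot tell transcripts without exon 3 from complete ones, so the groups are named below by their labels and each direction is relative to those labels. Sln, an atrial regulator of the calcium pump that earlier work describes as dependent on TBX5, was lower under the mutant label, at 927 ± 164 CPM (SD, n = 6) against 1823 ± 244 CPM (SD, n = 4), without overlap (log2 difference -0.98, SE 0.15, edgeR adjusted p = 0.000264). Library totals were 5703775 to 7095141 reads. The ribosomal RNA gene Rn45s took 38.9% of the reads in mutant M3 and at most 1.49% in the other 9 libraries, and no call among the members changed when M3 or Rn45s was left out. The sex labels of the 4 control mice went against sex-linked genes. Xist had 7850 and 10149 reads in the mice labelled M1 and M2 and at most 14 reads in F1 and F2. For sex-linked genes the 6 mutant mice matched their sex labels. By these genes, every fit below within 1 labelled sex sets control mice of 1 sex against mutant mice of the other. The labels do not say whether mice shared a litter or an extraction day, so p-values measure the spread between these mice.

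Voltage-gated calcium channels open when the membrane depolarises and let calcium into the cell. In atrial cardiomyocytes the L-type channel carries the inward current of the action potential plateau and triggers calcium release from the sarcoplasmic reticulum, while T-type channels open at more negative voltages and are known for their part in pacemaker cells. An L-type channel consists of a pore-forming alpha1 subunit, an intracellular beta subunit that aids trafficking and gating, and an extracellular alpha2delta subunit that raises the number of channels at the surface and modifies their gating. The pore genes studied were Cacna1c, Cacna1d and Cacna1s of the L-type and Cacna1g and Cacna1h of the T-type.

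Among the members, the largest difference between the labelled groups was that of an auxiliary subunit. Cacna2d2, which encodes an alpha2delta subunit, was lower in every mutant mouse than in any control mouse, with a mean of 102 ± 44.7 CPM (SD, n = 4) against 16.2 ± 2.51 CPM (SD, n = 6). Cacna1d, a minor L-type pore gene, was also lower. Cacnb2 fell and Cacnb3 rose by less than the 1.5-fold that a call required. Cacna1c, Cacna1s, both T-type pore genes, Cacnb1 and Cacna2d1 did not pass the test.

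A gene was called different when it passed an adjusted p of 0.05, differed by more than 1.5-fold and had a control signal above 1 in the authors' normalised values. By that rule 2 of 10 members were called lower, against a background of 7.16% of all genes tested, and 0 of 10 were called higher, against 8.50%. With no fold required, edgeR's adjusted p was under 0.05 for 3 members that were lower, with 15.0% of all genes lower, and for 1 member that was higher, with 16.3% of all genes higher. The labelled groups did not overlap for 1 member that was lower in the mutant mice and for 0 that were higher, and the corresponding shares of all genes were 11.0% and 11.7%. The median log2 difference was -0.11 over the members and -0.0050 over all genes tested.

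**Figure D1:**
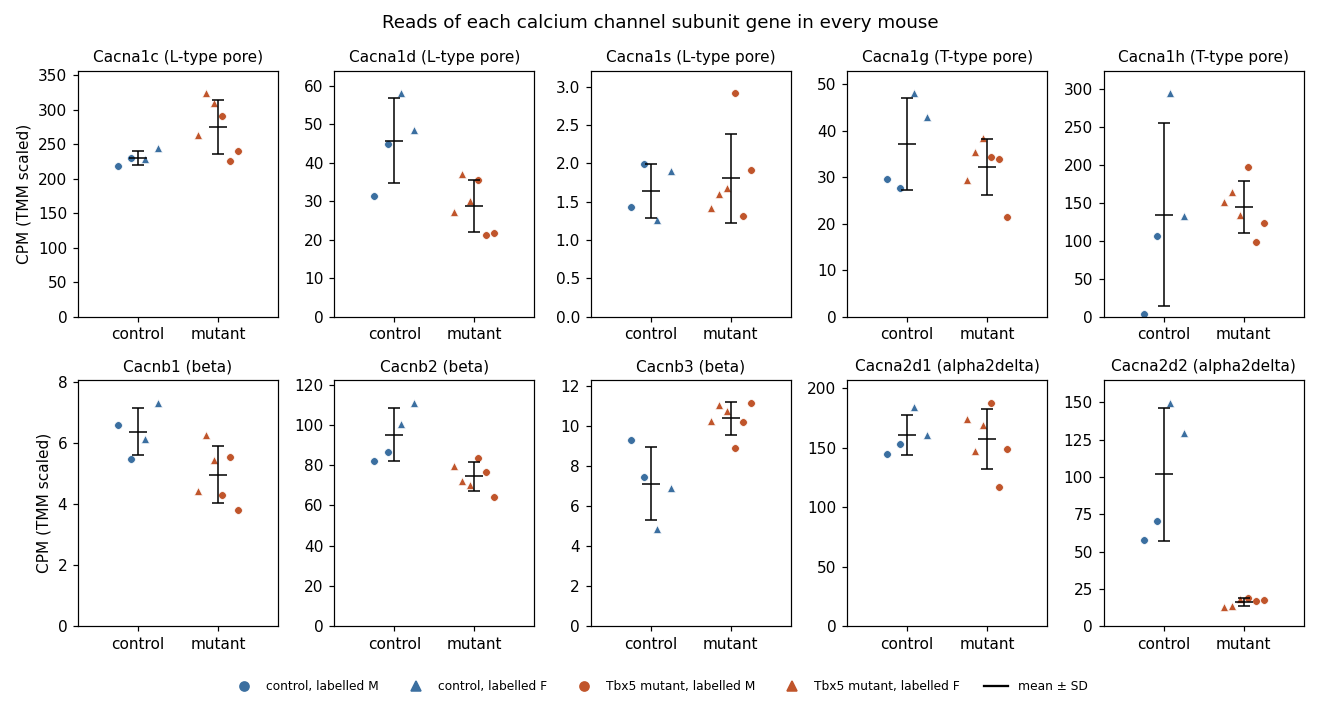
Each panel plots 1 subunit gene, with CPM scaled by TMM on the vertical axis from 0, a point for each mouse (blue, labelled control, n = 4; orange, labelled Tbx5 mutant, n = 6; circles, labelled M; triangles, labelled F) and bars for mean ± SD. Cacna2d2 is the panel in which the groups separate, with the mutant mice at 12.8 to 18.7 CPM and the control mice at 57.7 to 150 CPM, and Cacna1h has 1 control mouse at 4.0 CPM.

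Promoter sequence was taken from RefSeq on the GRCm38.p6 build, as the 250 bases before and 50 bases after each annotated start. Windows were found for 8 of 10 members, 14 windows in all, and not for Cacna1g and Cacna1h. The upstream stretches of the alpha2delta genes are shown because these genes encode the same kind of subunit and differed in their values, Cacna2d2 with the largest difference among the members and Cacna2d1 with none that passed the test. That of Cacna2d2 lies on the forward strand at chr9:107399630-107399879 and that of Cacna2d1 on the forward strand at chr5:15934441-15934690. Each is upstream of a RefSeq start. By GENCODE M21 the Cacna2d2 gene begins at 107399612, so its stretch lies inside the gene as annotated there. The Cacna2d1 stretch ends directly before the annotated gene, which begins at 15934691.
Cacna2d2 upstream: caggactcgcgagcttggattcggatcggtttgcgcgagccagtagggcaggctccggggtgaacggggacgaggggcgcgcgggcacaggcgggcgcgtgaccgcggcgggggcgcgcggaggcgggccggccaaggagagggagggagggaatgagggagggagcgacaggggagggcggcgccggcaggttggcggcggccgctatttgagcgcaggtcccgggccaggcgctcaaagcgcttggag
Cacna2d1 upstream: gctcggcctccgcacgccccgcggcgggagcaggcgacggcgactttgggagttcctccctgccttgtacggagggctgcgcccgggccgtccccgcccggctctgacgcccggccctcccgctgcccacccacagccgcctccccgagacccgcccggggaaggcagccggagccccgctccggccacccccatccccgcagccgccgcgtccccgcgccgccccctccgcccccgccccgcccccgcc
Both stretches were rich in G and C, at 74.4% in Cacna2d2 and 82.4% in Cacna2d1, and held 34 and 36 CG pairs. The letters AGGTGTGA, a T-box motif, were searched on both strands in every window, together with their core AGGTGT, which the longer motif contains. AGGTGTGA was in 0 of the 14 member windows and in 1.275% of all 32851 windows, and AGGTGT was in 1 of the 14 and in 13.741% of all windows. The match lay in a Cacna1c window on the reverse strand of chromosome 6, after the RefSeq start and not upstream of it. This window lies inside the annotated gene, and the Cacna1c window at the 5' end of the gene held no match. The match is shown here in capitals, at chr6:119108455-119108484.
Cacna1c match: gggctcgccctcAGGTGTtcgcggctgccg
These are matches of letters in short windows and carry no measurement of binding.

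Cacna1c encodes the alpha1C pore, the main L-type pore of working cardiomyocytes, and lies on the reverse strand of chromosome 6 from 118587240 to 119196418 (here and below by GENCODE M21 on GRCm38, the assembly also called mm10). Its level was 218, 230, 228 and 244 CPM in control M1, M2, F1 and F2, and it was 226 CPM in the lowest, 277 CPM at the median and 324 CPM in the highest mutant mouse. The control mice lay within a narrow band, the mutant mice were more spread, and the groups overlapped. The log2 difference of Cacna1c was 0.26 (SE 0.11) and did not pass the test (edgeR adjusted p = 0.0859). It passed at an adjusted p of 0.0340 without mutant M2, and when each library's trend of counts on transcript length was removed the log2 difference of Cacna1c was 0.61 (adjusted p = 0.000529) and the gene was called higher. Cacna1c has a long transcript, of 13162 bases in 47 exons, and over all genes the log2 difference was lower for longer transcripts (Spearman rho = -0.33 across genes, which are not independent, and 0.0044 after the removal).

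Cacna1d encodes the alpha1D pore, an L-type pore that opens at more negative voltages than alpha1C and is known from pacemaker cells and the atrium. The gene lies on the reverse strand of chromosome 14 from 30039939 to 30491455. It stood at 31.4, 44.8, 58.2 and 48.5 CPM in control M1, M2, F1 and F2. Among the mutant mice its lowest, median and highest levels were 21.1, 28.6 and 37.2 CPM. Control M1 lay inside the range of the mutant mice and the other 3 control mice lay above it. Mean Cacna1d was 1.58-fold lower in the mice labelled Tbx5 mutant, with a log2 difference of -0.66 (SE 0.18, edgeR adjusted p = 0.0148). The call was lost without control F1 (log2 difference -0.52, adjusted p = 0.0625), without mutant M2 by its fold alone (log2 difference -0.57, adjusted p = 0.0306), in the labelled males alone (adjusted p = 0.193) and with the length trend removed (log2 difference -0.42, adjusted p = 0.0821). Exons of Cacna1d share 589 bases with those of Chdh on the opposite strand, and the sources used here do not say whether reads were counted by strand.

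Cacna1s, on chromosome 1 from 136052750 to 136119822, encodes the pore of skeletal muscle. It had between 7 and 17 reads in every library, and its levels were 1.25 to 1.99 CPM in the control mice and 1.31 to 2.91 CPM in the mutant mice. The groups overlapped throughout, and a difference was not detectable at this depth (log2 difference 0.12, SE 0.29, edgeR adjusted p = 0.796). Exons of Cacna1s share 1309 bases with an antisense gene, Gm37759, so a part of these few reads could belong to either gene.

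The T-type pore genes did not pass the test in either direction. Cacna1g encodes the alpha1G pore, known from the conduction system, and lies on chromosome 11 from 94408391 to 94474198. Its levels were 29.7, 27.8, 48.1 and 42.9 CPM in control M1, M2, F1 and F2 and 21.5, 34.1 and 38.5 CPM in the lowest, median and highest mutant mouse. Control F1 and F2 lay above all mutant mice, and control M1 and M2 lay among them. The log2 difference of Cacna1g was -0.20 (SE 0.17, edgeR adjusted p = 0.408).

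Cacna1h, on chromosome 17 from 25374285 to 25433783, encodes the alpha1H pore. It was the least even member, with 4.0, 107, 295 and 132 CPM in control M1, M2, F1 and F2, that is 28, 644, 1880 and 978 reads. The mutant mice lay between 98.0 and 197 CPM with a median of 143 CPM. All mutant mice thus fell inside the range of the control mice, between control M1 at the bottom and control F1 at the top. The log2 difference of Cacna1h was 0.11 (SE 0.58, edgeR adjusted p = 0.907) with all mice. Its direction was not settled, with -0.29 without control M1, -0.011 without mutant M1, -0.51 in the labelled females alone and 0.84 without control F1. In control M1 Cacna1h was the only gene, of 8161 with at least 10 CPM in every other library, whose level was under 10% of that in every other library, and the corresponding count was 0 in each of the other 9 libraries. This count was made after the value of Cacna1h in M1 had been seen. The 10 nearest expressed genes around Cacna1h stood in control M1 at 0.336 to 1.262 times their mean in the other control mice, and Cacna1h itself at 0.022 times. The lowest of the 10 was Tekt4, the first of them beyond the higher end of Cacna1h. Its normalised signal was 9.8 in control M1 and 21.6 to 37.5 in the other control mice. Clcn7 was the next lowest, at 0.749 times. What lowered the count of Cacna1h in this library was not tested.

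Beta subunits bind the pore from inside the cell and shape its trafficking and gating. Cacnb2, on chromosome 2 from 14603088 to 14987908, is the main beta subunit gene of the heart. It stood at 82.0, 86.7, 100 and 111 CPM in control M1, M2, F1 and F2 and at 64.0, 74.3 and 83.7 CPM in the lowest, median and highest mutant mouse. Only control M1 lay inside the mutant range. Cacnb2 fell by 0.35 on the log2 scale (SE 0.10, edgeR adjusted p = 0.0185), which is 1.28-fold and below the fold required for a call. Its adjusted p was over 0.05 without control F1 (0.0561), without control F2 (0.0814) and in the labelled males alone (0.473). Exons of Cacnb2 share 111, 618 and 239 bases with 3 genes on the opposite strand.

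Cacnb3, on chromosome 15 from 98630840 to 98644529, encodes a beta subunit that is also used outside the heart. Its levels were 9.29, 7.45, 4.86 and 6.90 CPM in control M1, M2, F1 and F2 and 8.91, 10.5 and 11.2 CPM in the lowest, median and highest mutant mouse. Control M1 reached into the range of the mutant mice and the other control mice lay below it. Cacnb3 was the 1 member that rose with an adjusted p under 0.05, by 1.45-fold, which is less than a call required (log2 difference 0.54, SE 0.16, edgeR adjusted p = 0.0225). Its adjusted p was 0.0682 without control F1, 0.0514 without control F2 and 0.465 in the labelled males alone, and without control M1 Cacnb3 was called higher (log2 difference 0.70, adjusted p = 0.00748).

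Cacnb1, on chromosome 11 from 98001508 to 98023034 and best known as the beta subunit gene of skeletal muscle, was low in both groups. It stood at 5.46 to 7.31 CPM in the control mice and at 3.81 to 6.26 CPM in the mutant mice, with the groups overlapping. Its log2 difference was -0.34 (SE 0.17, edgeR adjusted p = 0.149).

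Alpha2delta subunits sit on the outer face of the membrane, and the products of Cacna2d1 and Cacna2d2 are the targets of gabapentin-type drugs. Cacna2d1, on chromosome 5 from 15934691 to 16374511, is the alpha2delta gene usually described for ventricular L-type channels. It stood at 145, 153, 184 and 161 CPM in control M1, M2, F1 and F2 and at 117, 159 and 188 CPM in the lowest, median and highest mutant mouse. The control mice lay within the range of the mutant mice. The log2 difference of Cacna2d1 was -0.030 (SE 0.12, edgeR adjusted p = 0.875).

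Cacna2d2 gave 57.7, 70.5, 150 and 129 CPM in control M1, M2, F1 and F2. In the mutant mice F1, F2, F3, M1, M2 and M3 it gave 12.8, 13.5, 18.1, 18.7, 16.7 and 17.7 CPM. The lowest control mouse was above the highest mutant mouse, the mutant mice were close together, and the control mice fell into a lower pair, M1 and M2, and a higher pair, F1 and F2. Mean Cacna2d2 was 6.29-fold lower in the mice labelled Tbx5 mutant, a log2 difference of -2.65 (SE 0.24, edgeR adjusted p = 3.94e-06). An exact permutation test over the 210 splits of the mice gave p = 0.00952 (two-sided), the smallest value this design allows. Under the 26 alternative settings of scaling, tool, filter, covariate and sample choice, the log2 difference of Cacna2d2 stayed between -3.23 and -1.85 with adjusted p between 1.49e-24 and 0.000646. In bulk tissue, fewer cells that express a gene and less RNA per cell cannot be told apart.

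The annotated Cacna2d2 gene (ENSMUSG00000010066.15) spans bases 107399612 to 107529343 of chromosome 9, forward strand, in GENCODE M21 (GRCm38), and its longest coding transcript, Cacna2d2-205, has 39 exons and 5807 bases. Its exons share 82 bases with an antisense gene, Gm17141. The 2 lower control values belong to the mice labelled male and the 2 higher to the mice labelled female. In a fit with labelled genotype, labelled sex and their interaction, the Cacna2d2 difference was larger in labelled females by -1.38 on the log2 scale (edgeR adjusted p = 0.0258), whereas 0.290% of all genes tested passed for this term and none of the other 9 members did. Its adjusted p was over 0.05 without any 1 of the control mice or without mutant F1 or F2 (0.0534 to 0.162). With the sex labels of the control mice exchanged, the order that sex-linked genes give, the interaction of Cacna2d2 was 0.87 with an adjusted p of 0.270. The interaction therefore changed sign with the labels of 4 mice. Cacna2d2 was lower in the mutant mice within the labelled males (log2 difference -1.85) and within the labelled females (log2 difference -3.23), but by sex-linked genes each of these comparisons sets control mice of 1 sex against mutant mice of the other.

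**Figure D2:**
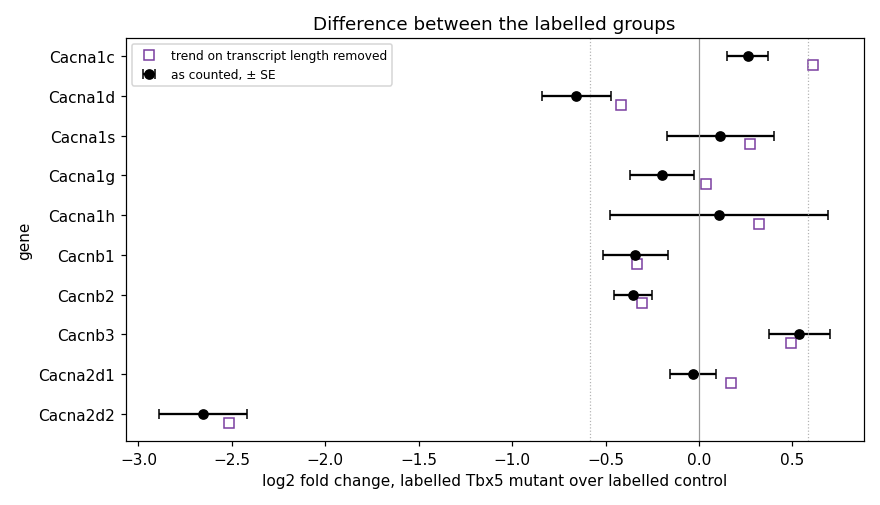
The log2 fold change of each subunit gene, labelled Tbx5 mutant over labelled control, is plotted with its SE (black) and beside the value with the transcript length trend removed (open squares); dotted lines mark a 1.5-fold change and the solid line marks 0. Cacna2d2 is at -2.65 and the other 9 genes lie between -0.66 and 0.54, while removal of the trend moved Cacna1c from 0.26 to 0.61 and Cacna1d from -0.66 to -0.42.

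Ratios of 2 subunit genes within a library do not depend on scaling between libraries, and 7 such ratios were tested by exact permutation (two-sided), with adjustment over the 7. How often ratios of any 2 genes tested keep the labelled groups apart was not counted. Single genes did so for 11.0% of all genes tested, lower, and for 11.7%, higher. The reads of Cacna2d2 per read of Cacna2d1 were 0.398 to 0.814 in the control mice and 0.0737 to 0.144 in the mutant mice. These ranges did not overlap, and the ratio was 5.67-fold lower in the mutant mice (log2 difference -2.50, exact permutation p = 0.00952, adjusted p = 0.0222). The alpha2delta transcripts thus differed in their proportions, with Cacna2d2 lower relative to Cacna2d1. This ratio rests on the same reads as the Cacna2d2 difference above and is not a separate result.

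Among the pores, the reads of Cacna1d per read of Cacna1c were 0.145 to 0.255 in the control mice and 0.0915 to 0.123 in the mutant mice. The ranges did not overlap, and the ratio was 1.88-fold lower in the mutant mice (log2 difference -0.91, exact permutation p = 0.00952, adjusted p = 0.0222). Cacnb2 relative to Cacna1c was also lower without overlap, with 0.377 to 0.455 reads per read in the control mice and 0.223 to 0.339 in the mutant mice (log2 difference -0.60, exact permutation adjusted p = 0.0222). The ratio of Cacna2d1 to Cacna1c was lower by a smaller margin, 0.659 to 0.807 against 0.455 to 0.662, with overlapping ranges (log2 difference -0.29, exact permutation adjusted p = 0.0333), and its adjusted p was over 0.05 without mutant F2, F3, M1 or M3 (adjusted p = 0.0556 in each case) and without control M1, M2 or F1 (0.0667 to 0.0833). The ratios without overlap, that of Cacna2d2 included, had an adjusted p of 0.0556 without control M1, M2 or F1, although they still had the smallest unadjusted p that 3 mice against 6 allow. Ratios to Cacna1c share that gene, whose own transcript is the longest of the members, and are not independent of each other.

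Ratios that involve the T-type pores did not pass. Cacna1g relative to Cacna1c had a log2 difference of -0.44 (exact permutation adjusted p = 0.0933), and its adjusted p was 0.0444 without mutant M2. Cacna1h relative to Cacna1c had a log2 difference of 0.89 (exact permutation adjusted p = 0.667) and Cacna1h relative to Cacna1g of 1.33 (exact permutation adjusted p = 0.356), and both carry the low value of control M1.

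**Figure D3:**
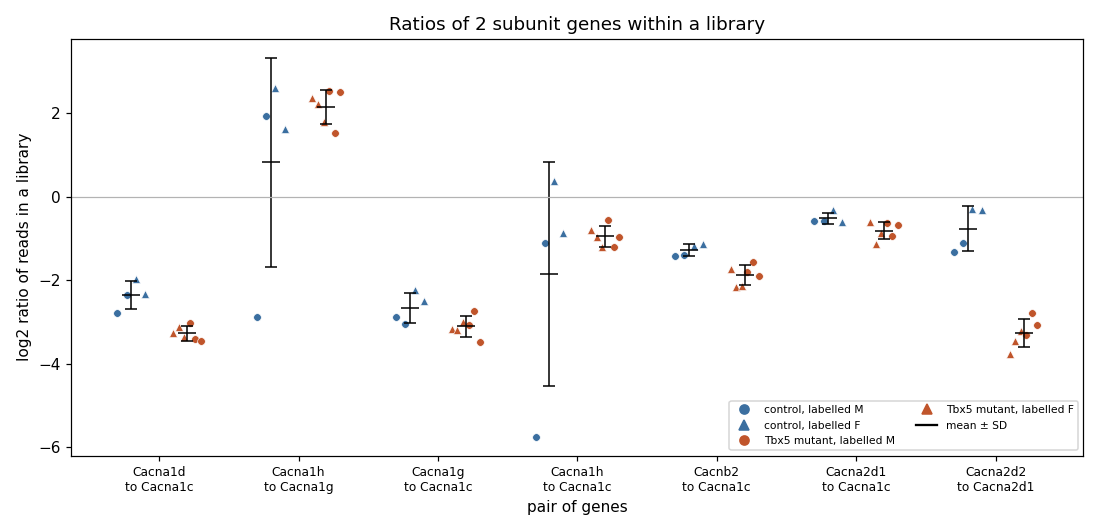
The log2 ratio of the reads of 2 subunit genes in a library is plotted for 7 pairs of genes, with a point for each mouse (blue, labelled control, n = 4; orange, labelled Tbx5 mutant, n = 6) and bars for mean ± SD. The groups separate for Cacna1d to Cacna1c, Cacnb2 to Cacna1c and Cacna2d2 to Cacna2d1, and the lowest points of both Cacna1h ratios are control M1.

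Levels of different subunits were compared as CPM per kb of the longest coding transcript. In the mice labelled control, Cacnb2 at 24.1 ± 3.34, Cacna2d1 at 21.6 ± 2.27, Cacna2d2 at 17.5 ± 7.69, Cacna1c at 17.5 ± 0.809 and Cacna1h at 16.3 ± 14.6 CPM per kb (SD, n = 4) formed the upper group. Each gene overlapped over mice with the next in this order, while Cacna1c, at 16.6 to 18.5, lay below Cacnb2 and Cacna2d1 in every control mouse. Cacna1d at 5.26 ± 1.27 and Cacna1g at 4.43 ± 1.19 CPM per kb (SD, n = 4) came next and overlapped each other. Cacnb3 at 2.61, Cacnb1 at 1.87 and Cacna1s at 0.262 CPM per kb were the lowest, and of these only Cacna1s was apart from its neighbour in every mouse. The L-type pore transcript of the right atrium was thus mostly Cacna1c on this scale, with 0.301 ± 0.0687 of Cacna1d per Cacna1c (SD, n = 4).

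Among the mutant mice, Cacna2d1 at 21.2 ± 3.38, Cacna1c at 20.9 ± 2.97, Cacnb2 at 18.9 ± 1.79 and Cacna1h at 17.6 ± 4.19 CPM per kb (SD, n = 6) were highest and overlapped. Cacna2d2 had moved from rank 3 to rank 8 of 10, at 2.80 ± 0.433 CPM per kb (SD, n = 6), below Cacna1g at 3.84, Cacnb3 at 3.80 and Cacna1d at 3.32. Its range, 2.20 to 3.22 CPM per kb, overlapped those of Cacna1g and Cacna1d and lay under that of Cacnb3. Cacna1d per Cacna1c was 0.158 ± 0.0190 (SD, n = 6) on the per-length scale. The order of the upper group depended on which length was used: per kb of all merged exons Cacna1h had rank 1 and Cacnb2 rank 5 in the control mice, while Cacna2d2 again had rank 3 in the control and rank 8 in the mutant mice.

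**Figure D4:**
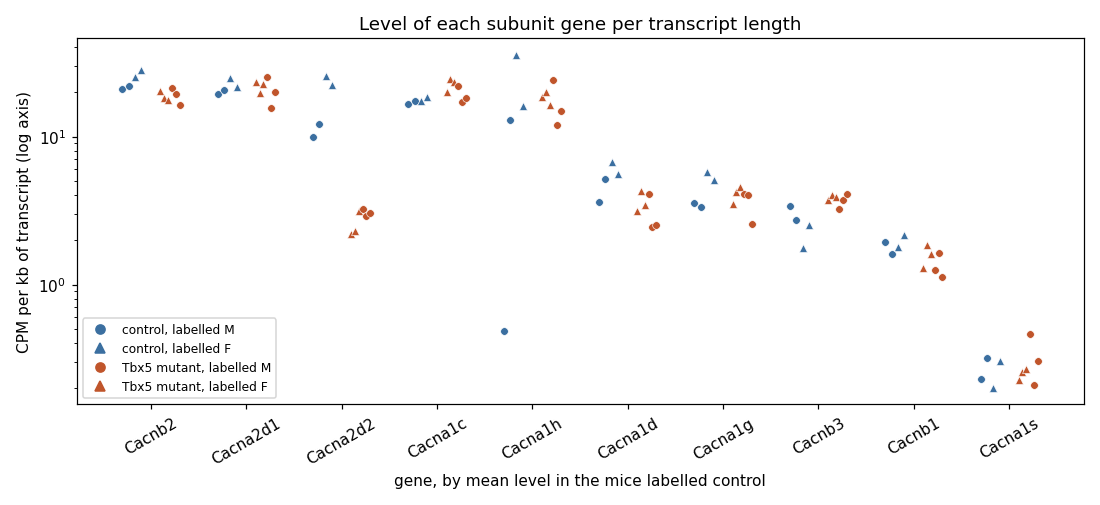
The level of each subunit gene in CPM per kb of its longest coding transcript is shown on a log axis for every mouse (blue, labelled control, n = 4; orange, labelled Tbx5 mutant, n = 6), with genes ordered by their mean in the mice labelled control. Cacna2d2 drops from a mean of 17.5 to 2.80, out of the upper group of 5 genes, whereas Cacna2d1 stays at 21.6 and 21.2.

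The surrounding channel genes were read from a list of 37 other subunits, partners and regulators, of which 36 were in the table and 20 had enough reads to be tested. Of the 20, 4 were called lower, against 7.16% of all genes tested, and 1 was called higher, against 8.50%. With no fold required 6 of the 20 were lower, against 15.0% of all genes, and 4 were higher, against 16.3%. The median log2 difference of the 20 was -0.19. Among the 16 other subunit genes 3 were tested, and the pore genes Cacna1b, Cacna1e, Cacna1f and Cacna1i, Cacna2d4 and all Cacng genes had too few reads.

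Cacna2d3, a further alpha2delta gene, was called lower. It fell from 17.1 ± 2.54 CPM (SD, n = 4) to 7.54 ± 1.80 CPM (SD, n = 6) without overlap, the control mice lying at 13.9 to 20.1 CPM and the mutant mice at 4.51 to 9.09 CPM (log2 difference -1.20, SE 0.18, edgeR adjusted p = 0.000232). In the labelled males alone its adjusted p was 0.0514 (log2 difference -1.07). Of the 3 alpha2delta genes tested, 2 were therefore called lower and Cacna2d1 was not. The P/Q-type pore gene Cacna1a (log2 difference -0.50, edgeR adjusted p = 0.0545) and the beta subunit gene Cacnb4 (log2 difference -0.49, edgeR adjusted p = 0.0921) were at or below 7.04 CPM in every mouse and did not pass.

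The RGK GTPases are small proteins that bind beta subunits and inhibit L-type current. Rrad, the most abundant of them here, stood at 148 ± 38.8 CPM (SD, n = 4) in the control and 133 ± 42.4 CPM (SD, n = 6) in the mutant mice. None of the 3 tested RGK genes passed, with log2 differences of -0.15 for Rrad, -0.20 for Rem1 and -0.22 for Gem (edgeR adjusted p = 0.624, 0.445 and 0.490), and Rem2 had too few reads.

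Of the 16 partner and regulator genes listed in the data, 14 were tested. Nedd4l, which encodes a ubiquitin ligase that acts on membrane channels, was lower, at 73.6 ± 10.7 CPM (SD, n = 4) against 43.1 ± 4.27 CPM (SD, n = 6), with a log2 difference of -0.77 (edgeR adjusted p = 0.000144). The genes of 2 anchoring proteins of protein kinase A were lower as well: Akap6 (log2 difference -0.61, edgeR adjusted p = 0.00864) and Akap5, at only 2.43 CPM in the control mice (log2 difference -1.15, edgeR adjusted p = 0.00901). Cav3, the muscle caveolin in whose membrane pits a share of L-type channels sits, was higher, at 75.2 ± 11.7 CPM (SD, n = 6) against 36.0 ± 4.93 CPM (SD, n = 4), with a log2 difference of 1.06 (edgeR adjusted p = 5.54e-05). With the length trend removed, the calls of Akap6 (log2 difference -0.25, adjusted p = 0.0930) and, by its fold, of Nedd4l (log2 difference -0.55, adjusted p = 0.00166) were lost. Akap6 lay close to the fold required and fell under it without control F1 (log2 difference -0.55) or mutant F3 (-0.57), M2 (-0.53) or M3 (-0.58), and in the labelled males alone its adjusted p was 0.138. Akap5 did not pass in the labelled males alone (adjusted p = 0.0569) or the labelled females alone (adjusted p = 0.102).

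Some markers of cell types also differed between the labelled groups, while the summed levels of several lists overlapped. Beside each count of called markers below, 7.16% of all genes tested were called lower and 8.50% higher. The summed level of 7 atrial cardiomyocyte genes was 68200 to 81536 CPM in the control and 57562 to 71139 CPM in the mutant mice. Most of that sum was Nppa and Myh6. Of the 7 genes, 3 were called lower (Nppa, Myl7 and Sln) and 2 were called higher (Actc1 and Tnnt2). Myl4 was lower by less than a call required (log2 difference -0.44, edgeR adjusted p = 0.0217), and Myh6 did not pass. Myl7, the atrial regulatory light chain, was at 6372 CPM in the control and 960 CPM in the mutant mice, and Myl3, a ventricular light chain, was at 45.4 CPM and 688 CPM. The lowest value of any of the 7 atrial genes in any library was 643 CPM, that of Sln in a mutant mouse. The 4 ventricular genes summed to 189 to 294 CPM in the control and 785 to 1586 CPM in the mutant mice. Of the 3 tested, 2 were called higher, Myl3 and Myl2, the latter at 4.53 CPM in the control and 19.4 CPM in the mutant mice. Myh7 did not pass (edgeR adjusted p = 0.208). It stood at 921 and 549 CPM in mutant M1 and M2 and at 81.4 CPM in mutant M3. Irx4 had too few reads to test.

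Sinoatrial node genes are of interest because Cacna1d and Cacna1g are known from pacemaker cells. The summed level of 8 such genes was 106 to 149 CPM in the control and 86.3 to 128 CPM in the mutant mice, and 2 of the 6 tested, Hcn4 and Tbx3, were called lower while none was called higher. The summed level of 7 neuron and Schwann cell genes, cell types in which alpha2delta genes are used as well, was 38.7 to 50.6 CPM in the control and 14.7 to 20.8 CPM in the mutant mice. That sum was mostly Dbh, at 36.4 CPM and 10.6 CPM, while Chat was at most 0.157 CPM in every library. The 7 skeletal muscle genes summed to 699 to 1174 CPM in the control and 1248 to 1647 CPM in the mutant mice, and almost all of that was Ckm, at 919 CPM and 1375 CPM, which was not called. Acta1 was the 1 gene of 4 tested that was called, at 0.349 CPM and 6.59 CPM, while Actn3 and Tnnt3 did not pass and Mylpf, Myh1 and Myh4 had too few reads to test. The part that these cell types have in the values of Cacna2d2, Cacna1d and the other members was not tested.

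Some genes of other non-myocyte lists differed as well. Of the fibroblast genes 2 of 6, Col1a1 and Col1a2, were called higher, while Pdgfra was lower by less than a call required (log2 difference -0.40, edgeR adjusted p = 0.0152) and Dcn had a log2 difference of -0.012, with sums of 2650 to 3303 CPM in the control and 3241 to 4468 CPM in the mutant mice. Of the smooth muscle and pericyte genes 2 of 6, Acta2 and Tagln, were called higher, with sums of 205 to 255 CPM and 263 to 691 CPM. Acta2 alone was at 72.4 CPM in the control and 287 CPM in the mutant mice. Myh11, Cnn1, Rgs5 and Kcnj8 did not pass, with log2 differences of 0.23, 0.87, -0.22 and -0.27. Of the leukocyte genes all 3 tested were called higher, with sums of 128 to 186 CPM and 208 to 293 CPM. No gene of these 3 lists was called lower. None of the 5 endothelial genes was called in either direction, with sums of 1334 to 1811 CPM in the control and 1316 to 1700 CPM in the mutant mice. Adipocyte genes had too few reads to test, and 1 erythroid gene was called higher.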

How the data were processed

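Right atrial RNA-seq libraries of 10 mice were grouped by their GEO labels. The authors deposited 1 table with raw read counts per gene and library, whole numbers without normalization, and a normalised signal in which, as deposited, each count is divided by a library size factor. Columns of the authors' own DESeq2 comparison (log2 fold change, standard error, Wald statistic, p-value, adjusted p-value, fold change) were not used. The submitters' processing notes name FastQC, TopHat2 2.0.11, featureCounts, DESeq2 and mm10; the annotation and the strand setting are not given in the sources used here. The table held 0 per-library columns without a sample.

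The members and the lists of partner and marker genes were chosen with earlier results of these data known. Genes were named by a rule covering all members, Tbx5, listed partners past the threshold, the RGK GTPases, other tested subunits and cell type markers. Counts were filtered with filterByExpr, scaled by TMM and compared with the quasi-likelihood test of edgeR 4.0.16 (R 4.3.3, prior count 0.125) with Benjamini-Hochberg adjustment over 13084 genes. In a simulation modelled on these libraries, the test recovered 161 of 200 genes given a 2-fold change among 12985 genes, with 9 false calls. Subunit ratios had 0.5 reads added. Alternatives used limma 3.58.1 with a trend and DESeq2 1.42.0, other scalings, filters and covariates, each labelled sex alone, each mouse left out, and removal of the trend on length by lowess (span 0.4), for the 11868 of 13084 tested genes with a length in GENCODE M21. Within-group pairs of libraries differed by more than sampling noise in all 21 pairs (chi-square per degree of freedom at least 3.78). The smallest detectable share, 3 reads, was 4.23e-05% to 5.26e-05% of a library, and such floors cover counting error only.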

Additional observations from a re-analysis of the deposited data

Results flagged for a closer look

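Values were searched for 1 mouse set apart from the rest of its group by Dixon's criterion in 46 groups of values, of which 2 passed where chance gives about 2.3, 1 in 20. Cacna1s stood at 2.91 CPM in mutant M1 and at 1.31 to 1.91 CPM in the other mutant mice, at no more than 17 reads. The log2 ratio of Cacna2d1 to Cacna1c reads was -0.31 in control F1 and -0.60 to -0.59 in the other control mice. The difference between labelled groups also differed between the labelled sexes for Cacna2d2, with an interaction of -1.38 on the log2 scale (edgeR adjusted p = 0.0258), and this value reversed when the control sex labels were exchanged.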

How the results depend on the processing

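Direction and side of the threshold held for Cacna2d2 under all 26 alternatives. Of the members, 2 called lower became 1, with Cacna1d lost, under the replicate block (adjusted p = 0.0568), in labelled males only, with the length trend removed, with that removal and the replicate block together, and at an adjusted p under 0.01; leaving out 1 mouse gave 1 to 2. The members called higher, 0 in the fit reported, were 1 in labelled females only, with the length trend removed and with no fold threshold (Cacna1c with the trend removed and Cacnb3 otherwise), and 0 to 1 with a mouse left out. Other channel and partner genes called lower were 4, and 1 in labelled males only, 2 with the length trend removed and 1 with the replicate block added to it; they were 3 under upper-quartile scaling, a mean count of at least 50, the replicate block and labelled females only, and without control F1 or mutant F3, M2 or M3. Those called higher were 1, and 2 under upper-quartile scaling and in labelled males only, 4 with no fold threshold and 1 to 3 with a mouse left out.

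Cacnb2 and Cacnb3 also had adjusted p over 0.05 with no scaling beyond the total (0.205 and 0.160) and under the replicate block (0.109 and 0.0803). Some differences that had not passed changed sign. That of Cacna1s was -0.020 in labelled females only and -0.083 to 0.22 with a mouse left out. That of Cacna1g was 0.075 in labelled males only, 0.039 with the length trend removed and 0.092 with the replicate block as well. Cacna1h gave -0.51 in labelled females only and -0.29 to 0.84 with a mouse left out. Cacna2d1 gave 0.022 in labelled males only, 0.17 with the length trend removed, 0.14 with the replicate block as well and -0.097 to 0.050 with a mouse left out. The interaction count of 1 member was 0 with the control sex labels exchanged, where Cacna2d2 stood at 0.87, and 0 to 1 with a mouse left out (0 without control M1, F1 or F2 or mutant F1 or F2, and without control M2 a count of 1 that was another member). The cause was not tested.

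With a mouse left out, log2 differences of the ratios were -1.06 to -0.78 for Cacna1d to Cacna1c, -0.57 to -0.30 for Cacna1g to Cacna1c, -0.41 to 1.63 for Cacna1h to Cacna1c, -0.66 to -0.54 for Cacnb2 to Cacna1c, -0.33 to -0.22 for Cacna2d1 to Cacna1c and -2.69 to -2.35 for Cacna2d2 to Cacna2d1. The ratios without overlap had an adjusted p of 0.0556 without control M1, M2 or F1 and of 0.0417 without control F2; with 3 control mice the unadjusted p was at its lowest possible value in each, and the adjusted value depends on how many of the 7 ratios reach it. With the numbers as labelled, same-numbered mice did not deviate together (correlations -0.047 to 0.036 over 4 pairs), and the replicate block used these numbers. Mutant F3 and M3 have no control mouse of the same label, so they added nothing to the group difference under this block. By sex-linked genes, each of the 4 pairs joins a control mouse and a mutant mouse of opposite sex. After exchange of the control sex labels, correlations were 0.276 for control M1 with mutant F1 and 0.030 for M2 with F2. They were 0.265 for control F1 with mutant M1 and 0.223 for F2 with M2. Whether the numbers pair mice was thus not settled. The fit reported treats the mice as unpaired, and no fit used the exchanged pairs. Reads limit Cacna1s, at 7 to 17 per library, and the strand setting limits genes that overlap others.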
